A study of Bos taurus with 12 samples.

Results

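Caruncular endometrium of heifers that were bred and carried a conceptus (Pregnant, P) was compared with that of heifers that were bred and carried none (Non-Pregnant, NP), by RNA-Seq of 4 heifers per group. These 8 libraries are part of a set of 12, of which the other 4 come from heifers that were not bred (Cyclic, C). All were Angus heifers whose estrous cycles had been synchronized with 2 doses of prostaglandin F2 alpha, and their tissue was taken in the window of maternal recognition of pregnancy. The P and NP groups therefore share the breeding and the synchronization, and what sets them apart by label is the conceptus. An NP heifer is one in which no conceptus was found at collection. The sources used here do not say whether such a heifer had not conceived or had lost an embryo before that day. From 27270 genes in the count table, the 1410 with a mean of at least 10 counts over the 8 bred heifers were tested.

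Caruncles are the raised areas of the ruminant endometrium that later form the maternal side of the placentomes. In cattle, the elongating conceptus secretes interferon tau, which acts on the uterine epithelium, keeps it from releasing the luteolytic pulses of prostaglandin F2 alpha and so lets the corpus luteum persist. Interferon tau also raises a set of interferon-stimulated genes in the endometrium, and progesterone from the corpus luteum changes the secretory activity of glands and luminal epithelium in bred and cyclic animals alike. The question of this comparison is what the endometrium of a bred heifer expresses when a conceptus is there and when it is not.

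The count table names genes by Ensembl identifier alone, and none of the 27270 identifiers could be paired with a symbol from the reference used here. Only 4 identifiers are printed, the 2 higher and the 2 lower in P with the smallest p, and other genes are described by their rank in abundance or in change. The endometrial origin of the tissue was not checked with marker genes here, nor were interferon-stimulated genes looked up, for the same reason. In a bulk tissue sample, fewer cells of a type and less RNA per cell cannot be told apart.

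Library totals were low for all heifers, a small share of the sequenced reads that the study's methods and results describe. The kit was stranded and the strand setting of the counting is not given in the sources used here, so whether the counts stand for the sense strand of each gene was not tested, and this limit holds for every level below. The P libraries held between 95618 and 152234 counts, the NP libraries between 102257 and 160862, and the C libraries between 111177 and 123761. Counts fell on 7485 to 9069 genes in P heifers and on 7676 to 10298 genes in NP heifers. The genes tested took between 79.8% and 85.0% of the counts of each library. Levels below are TMM-scaled CPM. They are relative to each library's counts on the genes tested, not to the totals above, and so are larger than shares of those totals. The 160092 CPM of the most abundant gene in NP heifer 74, given below, was 11.9% of that library's counts. On this scale 1 count was worth between 6.88 CPM in NP heifer 77 and 14.8 CPM in P heifer 79. Each label holds a sample number, read here as the number of the heifer, and the labels give no batch. No pair of libraries within a group agreed within sampling noise, with a chi-square per degree of freedom of 6.15 to 20.4 over all pairs.

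NP heifer 74 stood apart from its group. On the first principal component of the log2 CPM, which held 40.0% of the variance of the 8 libraries, P heifers 73, 78 and 79 lay at −9.07, −15.8 and −14.9 and P heifer 76 at 5.75. NP heifers 72, 75 and 77 lay at 20.4, 16.9 and 15.3, and NP heifer 74 at −18.7, beyond every P heifer. Its mean correlation across the genes tested was 0.872 with the 4 P heifers and 0.736 with the other NP heifers, and with P heifer 78 it reached 0.924. Genes are not independent replicates, so these correlations only describe the libraries. P heifer 76 lay between the groups, with a mean correlation of 0.813 with the other P heifers and 0.838 with NP heifers 72, 75 and 77. The label of heifer 74 is kept in every value below that is not marked as computed without it, since groups were taken from the labels alone. Values marked as without heifer 74 follow a choice made from its counts. Their intervals and FDRs describe the other heifers and are no test of the labelled groups.

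**Figure D1:**
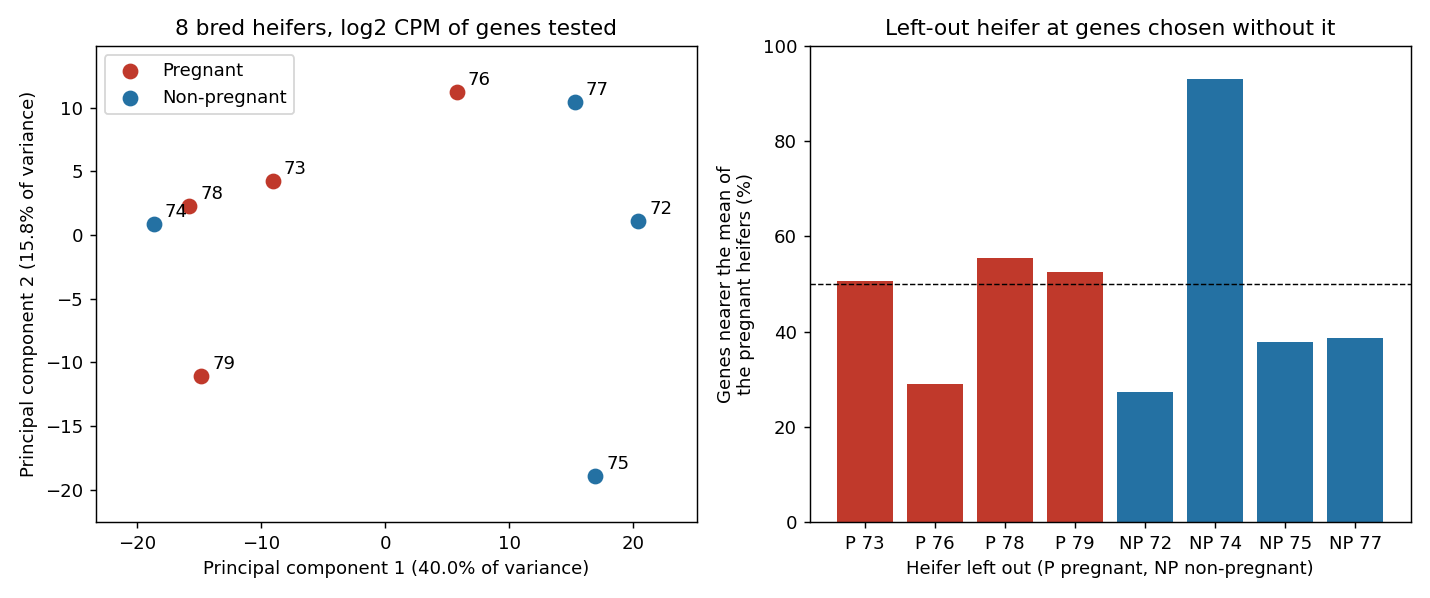
Left: the 8 bred heifers on the first 2 principal components of log2 CPM over the 1410 genes tested, red for pregnant and blue for non-pregnant, with the heifer number beside each point. Right: for each heifer left out in turn, the share (%) of genes at an unadjusted p under 0.05 without it at which that heifer lay nearer the mean of the pregnant heifers than that of the non-pregnant ones. Non-pregnant heifer 74 sits among the pregnant heifers on the left and reaches 93.1% on the right, while the other non-pregnant heifers range from 27.4% to 38.8%.

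With all 8 heifers, no gene was called different between P and NP endometrium. Calls rested on edgeR's quasi-likelihood test and needed an FDR under 0.05 (Benjamini-Hochberg over the 1410 genes) with a fold change over 2, and 0% of the genes passed. The smallest FDR was 0.431 and the smallest unadjusted p was 0.00109. At an unadjusted p under 0.05 there were 105 genes, 7.45% of those tested, of which 44 (3.12%) were higher and 61 (4.33%) lower in P. DESeq2 found 0 calls over the 12 libraries and 101 genes at an unadjusted p under 0.05, and over the 8 bred libraries alone it called 1 gene, with 80 at an unadjusted p under 0.05. At 31 genes (2.2%) the 4 P heifers and the 4 NP heifers did not overlap, with P higher at 11 (0.78%) and lower at 20 (1.42%). Both held for 18 genes (1.28%), 7 higher and 11 lower. With no true difference, 70.5 genes would be expected at an unadjusted p under 0.05. A gene without tied levels separates fully in a share of 0.0286 of the 70 divisions of 8 heifers. The 2.2% of genes without overlap was not above that share.

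A count of 0 calls says little about how large the differences could be, so the fitted differences are given with their 95% intervals. The median absolute log2 fold change was 0.30, the median standard error 0.39, and the median half-width of the interval 0.83, which is a 1.78-fold range to either side. From the 5th to the 95th percentile the fitted log2 fold changes ran from −0.92 to 0.91. The fitted change was over 2-fold for 119 genes, 59 higher and 60 lower in P. For 512 genes (36.3%) the whole interval lay inside 2-fold, so for these a change of 2-fold or more was outside the interval. It lay inside 1.5-fold for 60 genes (4.26%) and inside 4-fold for 1228 (87.1%).

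Precision followed abundance. Among the 732 genes with a mean of 10 to under 25 counts, the median standard error was 0.45 and 20.5% had an interval inside 2-fold. Between 25 and under 50 counts (296 genes) the standard error was 0.34 and the share 46.6%. Between 50 and under 100 counts (191 genes) they were 0.31 and 53.9%. The 191 best-measured genes, with 100 counts or more, had a median standard error of 0.27 and a median half-width of 0.58, a 1.5-fold range. Of these, 121 (63.4%) had an interval inside 2-fold and 34 an interval inside 1.5-fold. Their fitted change exceeded 2-fold at 11 genes, 4 higher and 7 lower in P.

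**Figure D2:**
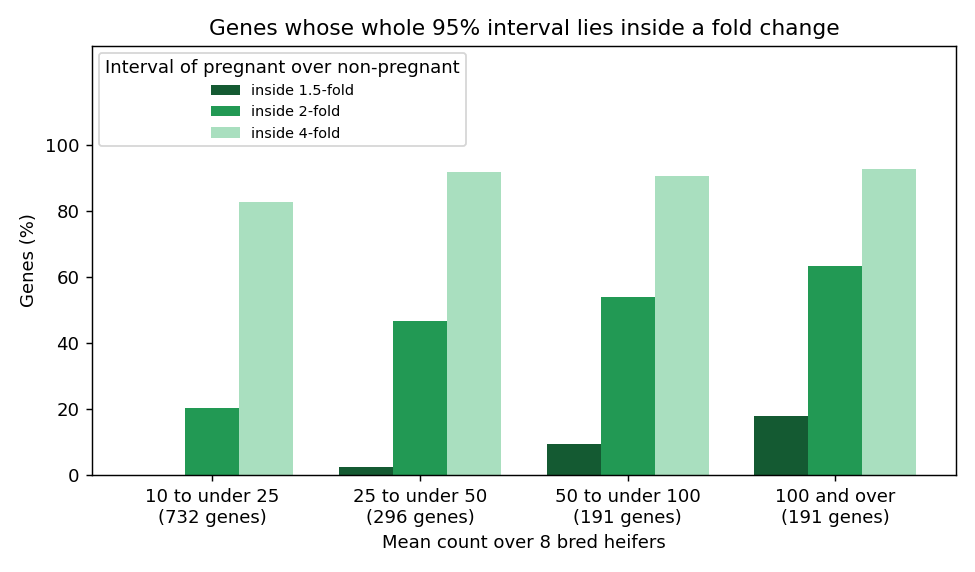
Share of genes (%) whose whole 95% interval of the fold change, pregnant over non-pregnant, lay inside 1.5-fold, 2-fold and 4-fold, by mean count over the 8 bred heifers. The share inside 2-fold is 20.5% in the lowest class and 63.4% in the highest, while the share inside 4-fold is 82.8% or more in every class.

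The 5 genes with the narrowest intervals showed levels that were close in both groups. Their standard errors ran from 0.163 to 0.174. The first had 5511, 4889, 5343 and 5272 CPM in P heifers 73, 76, 78 and 79, against 5932, 5542, 6089 and 5422 CPM in NP heifers 72, 74, 75 and 77. Its log2 fold change was −0.13 (95% interval −0.48 to 0.22). The second had 2386, 2344, 2181 and 1970 CPM in P, against 2683, 2458, 2692 and 2456 CPM in NP in the same order. These groups did not overlap, but the difference was small, with a log2 fold change of −0.21 (−0.56 to 0.14). For the other three the log2 fold change was −0.08, 0.17 and −0.01, and for all 5 the interval spanned 0 and stayed inside 1.5-fold.

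No difference among the 10 most abundant genes passed the test. None had an FDR under 0.05 with all heifers, and the exact permutation test (two-sided, 70 divisions of the 8 heifers) gave an adjusted p of 0.643 or more for each of the 10. The most abundant gene had 70959, 88525, 126671 and 127105 CPM in P heifers 73, 76, 78 and 79, against 25600, 160092, 35250 and 47110 CPM in NP heifers 72, 74, 75 and 77. NP heifer 74 held the highest level of all, and the other three NP heifers lay below every P heifer. Its fitted log2 fold change was 0.62 (−0.39 to 1.64; FDR 0.724) with all heifers, and 1.53 (0.92 to 2.13; FDR 0.0123) without heifer 74. The C heifers had 54427 to 62305 CPM, between the 2 sets of NP values and below all P values.

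The same heifer moved other abundant genes. The gene of rank 8 had 16248, 7607, 12306 and 23280 CPM in P, against 7028, 26842, 7972 and 7369 CPM in NP, where 26842 CPM belonged to heifer 74. Its log2 fold change was 0.27 (−0.69 to 1.23) with all heifers and 0.998 without heifer 74, where the FDR was 0.112. The gene of rank 10 had 5662, 9000, 15918 and 12514 CPM in P and 3755, 14076, 7845 and 3550 CPM in NP, again with heifer 74 highest in its group, and its log2 fold change was 0.56 (−0.33 to 1.45) with all heifers and 1.10 (0.32 to 1.87; FDR 0.109) without heifer 74. The gene of rank 9 ran the other way, with 8939, 10288, 10305 and 8796 CPM in P, against 13222, 6922, 21628 and 22320 CPM in NP. Here heifer 74 was the lowest of all 8, and the log2 fold change was −0.74 (−1.44 to −0.05; FDR 0.658) with it and −0.99 (FDR 0.0547) without it.

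For the genes of rank 2, 3, 6 and 7 the whole interval lay inside 2-fold, while those of rank 4 and 5 reached beyond it. The gene of rank 2 had 59322, 59016, 59809 and 68284 CPM in P, against 48870, 62404, 75295 and 41612 CPM in NP. Its P levels fell within the NP range, and its log2 fold change was 0.11 (−0.41 to 0.63). The genes of rank 3, 6 and 7 had log2 fold changes of −0.07 (−0.72 to 0.57), −0.26 (−0.84 to 0.33) and −0.25 (−0.73 to 0.23). The gene of rank 4 had a wide interval, −1.04 to 1.07 around 0.01, and its P levels ranged from 7612 CPM in heifer 73 to 47877 CPM in heifer 79. The gene of rank 5 was fitted at 0.86 (−0.14 to 1.86), with 74533 CPM in P heifer 79 and 14705 to 21860 CPM in the other P heifers, against 11394 to 25222 CPM in NP heifers. Without P heifer 79 its log2 fold change was 0.0087.

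**Figure D3:**
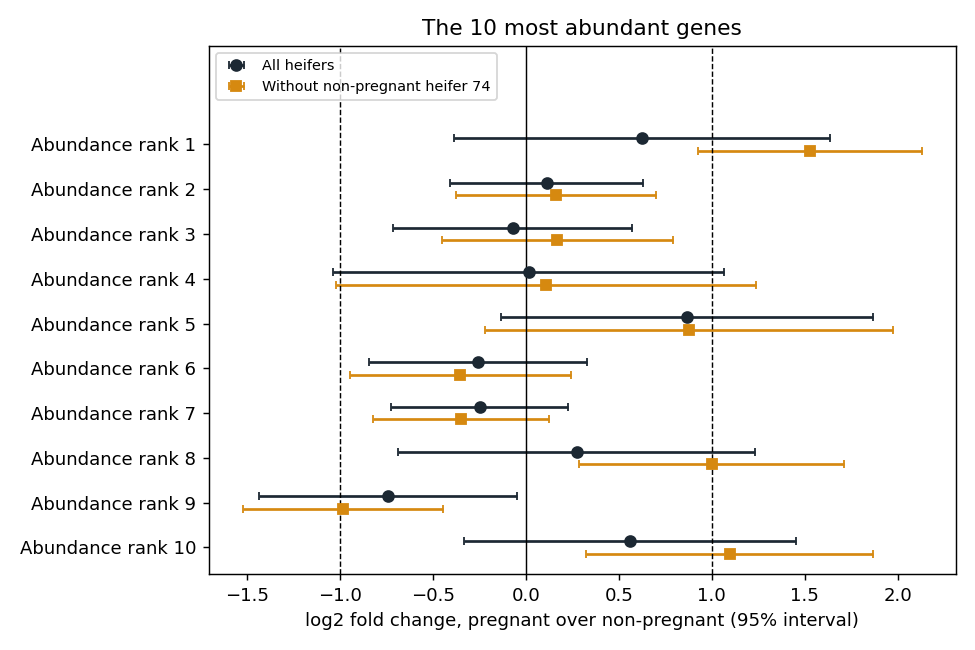
The log2 fold change of the 10 most abundant genes, pregnant over non-pregnant, with 95% intervals, with all 8 heifers (black circles) and without non-pregnant heifer 74 (orange squares); dashed lines mark 2-fold. With all heifers only the interval of rank 9 leaves out 0, and without heifer 74 the gene of rank 1 sits at 1.53 with an interval of 0.92 to 2.13.

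Among the 191 best-measured genes, 19 (9.95%) had an unadjusted p under 0.05, against 7.45% of all genes tested. Of these 19, 8 were higher and 11 lower in P, and at none did the groups separate fully. They were picked for that p after the values were seen, so their values describe them and add no support. The 8 higher genes had log2 fold changes of 0.42 to 1.56, and the 11 lower genes of −0.57 to −1.94. The largest difference was in a gene with 507, 382, 190 and 444 CPM in P heifers 73, 76, 78 and 79, against 1831, 278, 1872 and 1823 CPM in NP heifers 72, 74, 75 and 77. The P heifers and NP heifer 74 were low together, and the other three NP heifers were close to each other at a far higher level. This gave a log2 fold change of −1.94 (−3.06 to −0.81; FDR 0.439), and −2.27 without heifer 74 (FDR 0.0122). The C heifers, at 507 to 1548 CPM, lay below NP heifers 72, 75 and 77.

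A second lower gene had the same shape at a higher level, with 3837, 4133, 2181 and 2414 CPM in P and 10716, 1751, 8018 and 7857 CPM in NP. Its log2 fold change was −1.17 (−2.06 to −0.29) with all heifers and −1.49 (FDR 0.0122) without heifer 74. The C heifers, at 4692 to 5514 CPM, lay between the P heifers and NP heifers 72, 75 and 77. A higher gene showed the mirror image, with 1362, 1535, 1501 and 1111 CPM in P, against 624, 1449, 566 and 502 CPM in NP. Heifer 74 again had a level inside the P range, and the C heifers, at 481 to 581 CPM, lay below or among the other NP heifers. With all heifers the log2 fold change was 0.82 (0.16 to 1.48), and it was 1.30 (FDR 0.0122) without heifer 74. The 2 largest rises among the 19 had a wide spread within P. One had 294, 1071, 2051 and 4339 CPM in P heifers, against 405, 1067, 670 and 482 CPM in NP heifers, with a log2 fold change of 1.56 (0.32 to 2.81). The other reached 5132 CPM in P heifer 78, against 347 to 1333 CPM in NP heifers.

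**Figure D4:**
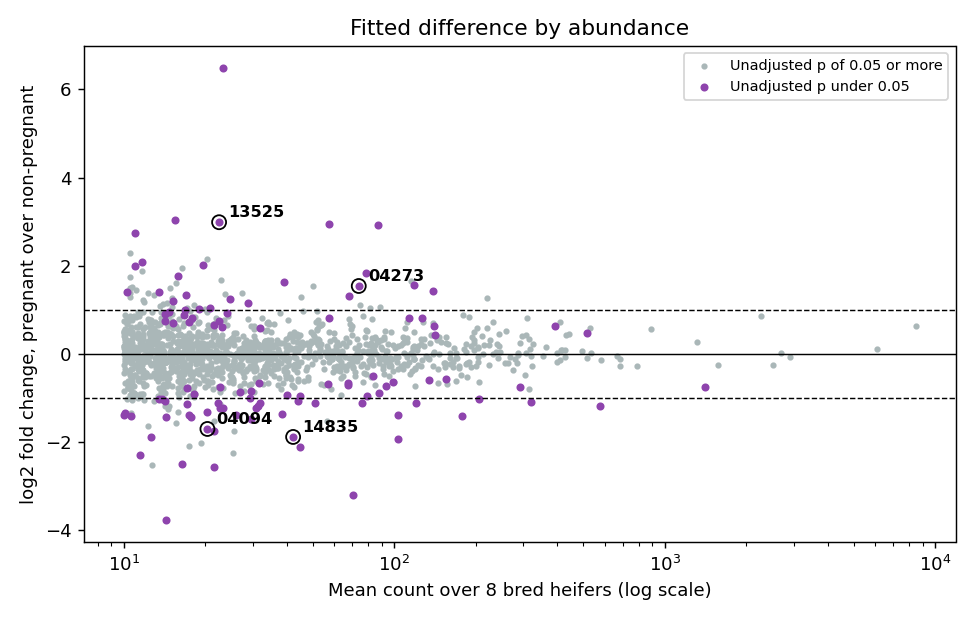
The log2 fold change, pregnant over non-pregnant, of each of the 1410 genes tested against its mean count over the 8 bred heifers (log scale), with the 105 genes at an unadjusted p under 0.05 in purple and dashed lines at 2-fold. Rings mark the 4 genes printed by identifier, labelled by the end of the identifier. The fitted change was over 2-fold for 10.9% of the genes with 10 to under 25 counts. In the higher classes of mean count that share was 5.07% to 6.81%, with no steady fall.

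The 4 identifiers with the smallest p in each direction are given in full. They were picked for that p, so their tests describe them and add no support. ENSBTAG00000004273 had 650, 928, 1691 and 1022 CPM in P heifers 73, 76, 78 and 79, against 228, 673, 231 and 351 CPM in NP heifers 72, 74, 75 and 77. NP heifer 74 lay just above P heifer 73, so the groups overlapped at that one point. The gene averaged 1073 ± 441 CPM in P and 371 ± 209 CPM in NP (SD, n = 4 each), and 502 ± 81.7 CPM in C heifers. The log2 fold change was 1.54 ± 0.37 (SE; 0.74 to 2.34), with an FDR of 0.431 and an exact permutation p of 0.0571, against 0.0286 as the smallest p that 4 against 4 allow. Without heifer 74 it was 1.99 (FDR 0.0122).

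ENSBTAG00000013525 had 116, 127, 230 and 1496 CPM in P heifers, from 13, 17, 23 and 101 counts. The NP heifers had 75.9, 92.8, 23.1 and 48.2 CPM, from 9, 8, 2 and 7 counts. The groups did not overlap, but most of the P counts came from heifer 79. Its log2 fold change of 2.99 ± 0.79 (SE; 1.29 to 4.69; FDR 0.431) came down to 1.40 without that heifer, and was 3.22 (FDR 0.0665) without NP heifer 74. C heifers, at 76.95 ± 11.2 CPM (SD, n = 4), lay within the NP range.

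ENSBTAG00000014835 had 178, 180, 150 and 163 CPM in P heifers 73, 76, 78 and 79, against 675, 336, 936 and 537 CPM in NP heifers 72, 74, 75 and 77. The P heifers were close to each other and all below the NP heifers, of which heifer 74 was the lowest. The log2 fold change was −1.88 ± 0.47 (SE; −2.89 to −0.88; FDR 0.431), and the exact permutation p of 0.0286 is the smallest that this design allows. It was −2.08 (FDR 0.0345) without heifer 74, and it was the one gene called by DESeq2 over the 8 bred libraries (FDR 0.00416). C heifers ranged from 229 to 1200 CPM, so unbred heifers spanned the whole NP range and went beyond it on both sides.

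ENSBTAG00000004094 had 53.4, 112, 70.03 and 104 CPM in P heifers, against 439, 116, 185 and 344 CPM in NP heifers. NP heifer 74, at 116 CPM, was next to the highest P heifer, and the groups did not overlap. It was fitted at a log2 fold change of −1.70 ± 0.43 (SE; −2.63 to −0.77; FDR 0.431), and −1.94 (FDR 0.0175) without heifer 74. C heifers averaged 216 ± 62.2 CPM.

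**Figure D5:**
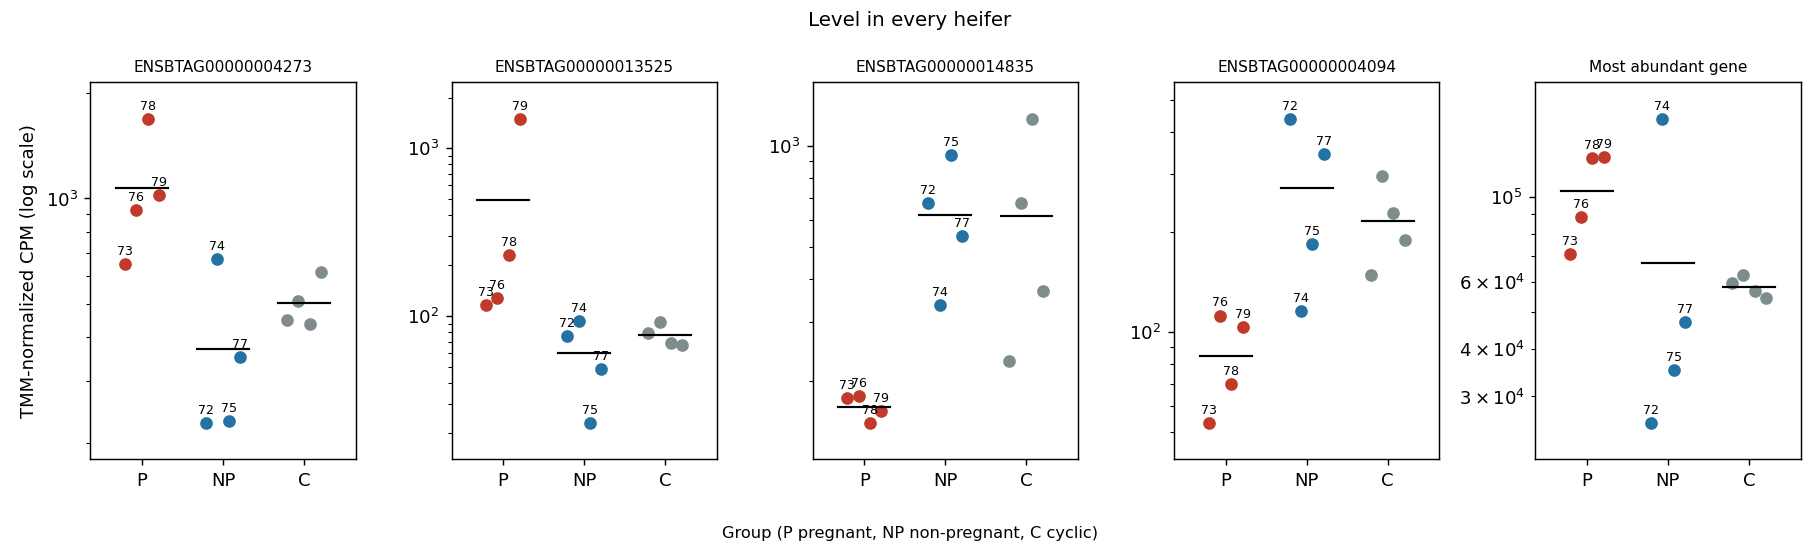
CPM (log scale) in every heifer for the 4 genes printed by identifier and for the most abundant gene, in pregnant (red), non-pregnant (blue) and cyclic (grey) heifers, with heifer numbers on the bred animals and a bar at each group's mean. Non-pregnant heifer 74 is the non-pregnant animal nearest the pregnant ones in the panels of the 4 identifiers, and in the last panel it lies above them all at 160092 CPM.

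The 18 genes that combined an unadjusted p under 0.05 with groups that did not overlap, ENSBTAG00000013525, ENSBTAG00000014835 and ENSBTAG00000004094 among them, each had a mean under 100 counts. The largest rise after ENSBTAG00000013525 was in a gene with 748, 1804, 940 and 1066 CPM in P heifers, against 236, 673, 80.9 and 296 CPM in NP heifers. Its log2 fold change was 1.84 (0.59 to 3.08), and 2.45 (FDR 0.0362) without heifer 74. The 5 smaller rises had log2 fold changes of 0.69 to 1.76. Among the falls, one gene had 125, 82.4, 100 and 133 CPM in P, against 321, 209, 335 and 227 CPM in NP, with a log2 fold change of −1.33 (−2.06 to −0.59). Another had 214, 135, 200 and 193 CPM in P, against 473, 301, 335 and 468 CPM in NP, with −1.10 (−1.73 to −0.48). One more had 507, 509, 430 and 504 CPM in P, against 869, 835, 890 and 599 CPM in NP, a log2 fold change of −0.71 (−1.21 to −0.21). For none of them was the FDR below 0.431 with all heifers.

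The largest fitted changes came from single heifers. The largest rise, a log2 fold change of 6.47 (1.98 to 10.97), was in a gene with 184 counts in P heifer 73 and 0 in the other three P heifers, against 2 counts in NP heifer 75 and 0 in the other three NP heifers. The largest fall, −3.76 (−6.65 to −0.87), was in a gene with 0 to 3 counts in P heifers, against 103 counts in NP heifer 77 and 2 in each of the other NP heifers. Of the 59 genes fitted at more than 2-fold higher in P, 28 had more CPM in one P heifer than in the other three together, and that heifer was 79 at 18 genes. Of the 60 genes fitted at more than 2-fold lower, 22 had more CPM in one NP heifer than in the other three together. That heifer was 75 at 11 genes, 77 at 8 and 72 at 3, and heifer 74 at 0. These genes were picked for their fitted change, and the same share over all genes tested was not computed. P heifer 79 also had the lowest library total, 95618 counts, and the most CPM per count, 14.8.

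Leaving out NP heifer 74 changed the count of calls, and leaving out no other single heifer did. Without it, on the same 1410 genes, 38 genes (2.7%) were called in edgeR's quasi-likelihood test, 28 (1.99%) higher and 10 (0.709%) lower in P, with a smallest FDR of 0.0122. The genes at an unadjusted p under 0.05 came to 274 (19.4%), and those without overlap to 218 (15.5%), where 3 NP heifers separate from 4 P heifers more easily than 4 do. The median standard error was 0.39 in both fits, while the median absolute log2 fold change was 0.41 without heifer 74 and 0.30 with it. All 38 genes had the same direction with all heifers, where their median absolute log2 fold change was 1.08, against 1.98 without heifer 74, and 16 of them were at an unadjusted p under 0.05. Of the 38, 9 were among the best-measured genes, which made up 191 of the 1410 tested. At each of the 38, heifer 74 lay nearer the P mean than the mean of the other NP heifers, and at 30 it lay beyond the P mean.

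The same description was made for each heifer in turn, a choice made after the values were seen. At the genes with an unadjusted p under 0.05 when a heifer was left out, the share at which that heifer lay nearer the P mean was 93.1% for NP heifer 74 (255 of 274). It was 27.4% for NP heifer 72, 37.9% for NP heifer 75 and 38.8% for NP heifer 77. Among P heifers it was 50.6% for heifer 73, 55.6% for heifer 78, 52.4% for heifer 79 and 29.0% for heifer 76. P heifer 76 was thus nearer the NP mean at most of its genes, with heifer 74 still in that mean. Without both heifers, 94 of the 1410 genes were called, 73 higher and 21 lower, and 37 of the 38 genes were among them. The fit without these heifers chooses them by their counts, so its calls describe the other heifers and do not stand as a result of the labelled groups.

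Spread within the groups was close in P and NP heifers. The median SD of log2 CPM over the genes tested was 0.46 in P and 0.50 in NP heifers, and the SD was larger in NP at 805 of the 1410 genes (57.1%). It was 0.40 in P heifers without heifer 76 and 0.39 in NP heifers without heifer 74. The biological coefficient of variation over the 12 libraries was 0.401. What set heifer 74 apart was not tested.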

How the data were processed

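RNA-Seq libraries of caruncular endometrium from 12 Angus heifers (4 per group) were analysed, made from total RNA with a stranded mRNA kit and read single-end. The study's methods describe more libraries prepared per group, and the others were not analysed here. The authors trimmed and filtered the reads, used HISAT2 to align them to the bovine genome ARS-UCD1.2, SAMtools for sorting and htseq-count (HTSeq) for counting by gene, and they deposited 1 table of raw counts for 27270 genes. The strand setting of the counting is not given in the sources used here and was not tested. The other deposited tables hold the authors' DESeq2 fold changes and p-values and were not used. Every sample column of the count table was used.

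Groups came from the labels. The sample numbers in the labels were read as heifer numbers, with no number shared between groups. Genes with a mean of 10 or more counts over the 8 bred heifers were tested with edgeR 4.0.16 (R 4.3.3), by the quasi-likelihood test on all 12 libraries with 3 group means and TMM scaling, which leaves 13.6 degrees of freedom. Calls needed a Benjamini-Hochberg FDR under 0.05 and a fold change over 2. The 95% intervals are the unshrunk log2 fold change with its standard error, taken from the F statistic, and the t distribution. CPM carry no pseudocount, and log2 CPM for principal components, SDs and exact tests have a prior count of 2. DESeq2 1.42.0, limma 3.58.1, other scalings, other filters and leaving out heifers were tried as alternatives. The scripts were tested on simulated data. With 1 count worth at least 6.88 CPM, genes near the filter rest on few counts. The labels give no batch. The p-values set the difference between P and NP against the spread between heifers within groups. That spread was estimated over all 12 libraries, C heifers included, with information shared across genes.

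The named genes follow 1 rule: the 10 most abundant, the 10 largest rises and 10 largest falls among genes at an unadjusted p under 0.05 without overlap, the 5 with the smallest standard error, and, as identifiers had no symbols, only the 2 higher and 2 lower identifiers with the smallest p printed. The best-measured genes at an unadjusted p under 0.05 and the 2 largest fitted changes were added after their values were seen. Gene lists for interferon response, marker genes and other pathways had been drawn up, but none was used since identifiers had no symbols. The genes, rules and lists were chosen with earlier results of these data known.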

Additional observations from a re-analysis of the deposited data

Results flagged for a closer look

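In 78 checks of single heifers within a group of 4 (12 of library measures and 66 of gene levels), 8 found a heifer further from the nearest other heifer than Dixon's 95% limit allows, where chance would give about 3.9. The 8 concern P heifer 79, NP heifer 74 and P heifer 78 alone. The figure of 3.9 holds for normally distributed values. The CPM checked were not on a log scale, and some of the genes were chosen for their difference between groups. Setting 8 against 3.9 is therefore no test. Of the library measures, P heifer 79 had counts on 7485 genes, against 8816 to 9069 genes in the other P heifers, and it also had the lowest total. NP heifer 74 lay at −18.7 on the first principal component, against 15.3 to 20.4 in the other NP heifers.

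The other 6 concern gene levels. NP heifer 74 had 160092 CPM of the most abundant gene, against 25600 to 47110 CPM in the other NP heifers, and 26842 CPM of the gene of rank 8, against 7028 to 7972 CPM. P heifer 79 had 1496 CPM of ENSBTAG00000013525, against 116 to 230 CPM in the other P heifers, 74533 CPM of the gene of rank 5, against 14705 to 21860 CPM, and 68284 CPM of the gene of rank 2, against 59016 to 59809 CPM. P heifer 78 had 430 CPM of one of the genes that were lower in P without overlap, against 504 to 509 CPM in the other P heifers. Causes were not tested.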

How the results depend on the processing

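The absence of calls held with RLE size factors, library totals alone, DESeq2 over 12 libraries, limma-voom, robust estimation, the 8 bred libraries alone, the filterByExpr defaults, a mean of 50 or more counts and no fold minimum. DESeq2 over the 8 bred libraries called 1 gene. With no filter, 52 of 15087 genes were called, 26 in each direction, with 831 at an unadjusted p under 0.05 and 230 without overlap. A mean of 50 or more counts left 382 genes, of which 34 were at an unadjusted p under 0.05, 9 did not overlap and 222 had an interval inside 2-fold. Each heifer left out in turn, on the same 1410 genes, gave 0 to 38 calls and 58 to 274 genes (4.11% to 19.4%) at an unadjusted p under 0.05. Genes without overlap numbered 44 to 218 (3.12% to 15.5%), and each count was highest without NP heifer 74. Without heifers 74 and 76 these were 94, 326 (23.1%) and 373 (26.5%) of the 1410, and 301 genes had an interval inside 2-fold. Groups with fewer heifers separate fully more easily, so counts without overlap from fits with fewer heifers do not compare directly with that from all 8.

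Of 612 values of 33 single genes under the alternatives, 573 kept their direction uncalled, 17 kept it and were called, and 22 reversed. The gene of abundance rank 2 ranged from −0.014 to 0.27 (log2 fold change) when 1 heifer was left out, rank 3 from −0.23 to 0.17 and 0.35 without heifers 74 and 76, and rank 8 from −0.030 (without P heifer 79) to 0.998. Rank 4 was −0.11 with library totals, −0.34 with limma-voom, −0.045 with no filter, −0.080 without heifers 74 and 76, and −0.45 to 0.32 when 1 heifer was left out. The gene with the fifth narrowest interval was 0.0059 with RLE size factors, 0.0034 with DESeq2 over 12 libraries, 0.0086 with filterByExpr, 0.075 without heifers 74 and 76, and −0.068 to 0.074 when 1 heifer was left out. The cause was not tested. Over all alternatives the FDR ran from 0.00563 to 0.921 for ENSBTAG00000004273, from 6.27e-06 to 0.921 for ENSBTAG00000013525, from 0.000859 to 0.921 for ENSBTAG00000014835 and from 0.0117 to 0.921 for ENSBTAG00000004094.

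No paired analysis was possible because the groups share no heifer number and the labels pair no libraries. The alternatives planned for gene lists were not run, since identifiers had no symbols. For 732 of the 1410 genes the mean was under 25 counts, and the median half-width of the interval there was 1.94-fold. At 100 counts or more the median half-width was 1.5-fold. How far low library totals and spread between heifers each set these widths was not tested.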
